A study of Mus musculus with 6 samples.

Results

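The genes described here had the highest ratios of promoter to gene body counts of RNA polymerase II in wild-type (WT) mouse adrenal glands. Gene body counts were not divided by length. These genes were chosen from summed counts of the 3 WT libraries. Of 12718 genes in the tables, 12692 had at least 100 summed counts over the transcription start site (TSS) and gene body, with Gm10800 left out. The ratio of TSS counts to gene body counts plus 1 was taken for each, and the top 5% by this ratio, 634 genes, are called the members. The other 12058 eligible genes serve for comparison.

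The data were ChIP-seq counts of RPB1, which is the largest polymerase subunit and was pulled down through its N-terminal domain, over the TSS, gene body and transcription end site (TES). Female mice of a 129 sv and CD1 cross, 10 to 14 months old, were either WT or Armc5(-/-), with 3 libraries of each genotype. Each library carries its own mouse number and was treated as 1 animal. Whole adrenal glands were homogenised, so cortex, medulla, capsule and vessels were measured together, and fewer cells of a type cannot be told apart from less polymerase per cell. No input library was used here, and values for Armc5 were not analysed here.

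Library totals ran from 1133364 to 3406223 TSS counts, 12419812 to 22523647 gene body counts and 958001 to 2294430 TES counts. Counts were fewest in knockout replicate 1 and in WT replicates 1 and 2, and in these Gm10800 alone took 10.9% to 25.1% of TSS counts, against 2.67% to 4.66% in the other 3 libraries. The tissue label was checked with adrenal markers. Gene body counts per kilobase placed Star, the cholesterol carrier of steroidogenesis, at the 99.9th percentile of genes and Cyp11b1 at the 99.8th. Chga, a chromaffin granule protein of the medulla, stood at the 98.1th percentile and Dbh, which makes noradrenaline, at the 73.9th, and no listed marker in the table was at 0.

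RNA polymerase II commonly halts a short way downstream of the start site and is released into the gene body by elongation factors. A high ratio of promoter to body signal is widely used as a sign of such pausing, though it also depends on how long the gene is and on what else lies in the windows. Genes that respond fast to signals, such as heat shock and immediate early genes, are textbook examples of paused promoters. Replication-dependent histone genes are short, lack introns and end at a stem-loop in place of a poly(A) tail.

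Promoters from RefSeq (GRCm38.p6, from 250 bases before to 50 after the listed start) are shown for the members at the ends of the range. Hist2h2aa1 had the highest ratio and Ttc39d the highest among genes with gene body counts, while Jund had the most TSS counts in WT of any member outside the predicted genes, which were counted but not listed. Dbil5, whose start lies back to back with that of Gemin4, and Klf4 were added after their values were seen. Capitals mark matches on either strand to any of 9 motifs. These were the TATA box TATAAA, the CCAAT box, the GC box GGGCGG, the CRE core TGACGT, the ETS core CCGGAA, the NRF1 motif GCATGCG, the E-box CACGTG, the YY1 motif AAGATGG and the SF-1 motif CAAGGTC, which do not contain one another.
Hist2h2aa1: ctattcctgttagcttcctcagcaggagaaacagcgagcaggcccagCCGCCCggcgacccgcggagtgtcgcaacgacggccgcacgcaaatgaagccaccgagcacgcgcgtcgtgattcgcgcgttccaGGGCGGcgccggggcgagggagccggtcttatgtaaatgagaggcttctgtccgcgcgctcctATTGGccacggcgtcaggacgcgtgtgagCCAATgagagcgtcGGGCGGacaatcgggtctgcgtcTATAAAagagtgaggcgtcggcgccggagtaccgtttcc
Ttc39d: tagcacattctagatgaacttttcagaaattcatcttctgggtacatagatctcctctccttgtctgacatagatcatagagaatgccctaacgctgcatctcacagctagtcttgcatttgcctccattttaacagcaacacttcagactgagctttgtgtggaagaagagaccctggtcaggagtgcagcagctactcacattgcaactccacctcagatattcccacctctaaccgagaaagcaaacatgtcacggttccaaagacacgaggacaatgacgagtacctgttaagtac
Jund: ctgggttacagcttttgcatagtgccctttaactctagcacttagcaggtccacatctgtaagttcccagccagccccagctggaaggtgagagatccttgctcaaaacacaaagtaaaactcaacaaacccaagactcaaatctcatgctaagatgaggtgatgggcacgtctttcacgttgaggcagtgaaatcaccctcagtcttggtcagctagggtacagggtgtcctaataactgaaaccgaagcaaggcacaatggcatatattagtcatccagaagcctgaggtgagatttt
Dbil5: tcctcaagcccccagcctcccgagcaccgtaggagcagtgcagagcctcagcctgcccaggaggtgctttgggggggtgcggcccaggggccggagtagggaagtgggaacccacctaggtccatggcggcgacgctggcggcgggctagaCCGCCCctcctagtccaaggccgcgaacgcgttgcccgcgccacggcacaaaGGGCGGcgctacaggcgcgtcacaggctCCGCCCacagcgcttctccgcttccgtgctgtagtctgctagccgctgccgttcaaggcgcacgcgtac
Klf4: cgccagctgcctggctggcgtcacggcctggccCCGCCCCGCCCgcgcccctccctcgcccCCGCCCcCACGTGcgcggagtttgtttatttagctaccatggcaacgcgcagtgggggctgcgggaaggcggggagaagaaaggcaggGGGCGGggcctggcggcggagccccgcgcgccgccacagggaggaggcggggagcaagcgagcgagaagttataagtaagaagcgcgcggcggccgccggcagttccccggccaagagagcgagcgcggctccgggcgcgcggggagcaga
The Hist2h2aa1 window lies at chr3:96245247-96245546 on the plus strand and held 41 CpG and 6 motif matches, among them the TATA box and CCAAT boxes on both strands. The windows of Ttc39d (chr17:80215664-80215963, plus strand) and Jund (chr8:70697489-70697788, plus strand) held 5 and 3 CpG and none of the 9 motifs. Dbil5 (chr11:76217363-76217662, plus strand) had 30 CpG and 3 GC boxes, and its start was 41 bp from the opposing start of Gemin4. Klf4 (chr4:55532426-55532725, minus strand) had 40 CpG and 5 matches, 4 of them GC boxes and 1 an E-box. The 5 windows thus ran from 3 to 41 CpG. In the Hist2h2aa1 window the TATA box began 11 bases after the listed start. Whether the listed starts are those in use, and whether the polymerase signal lay at them, was not tested.

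Most members stood only a little above the threshold. The median WT ratio was 0.993 for members and 0.126 for the other genes. Of the members, 324 had a ratio below 1, 211 between 1 and 1.5, 60 between 1.5 and 2, 29 between 2 and 3, and 10 at 3 or more, and 310 had more TSS than gene body counts. The last genes inside were Ykt6 at 0.7612, Zfp579 at 0.7613 and Acd at 0.7617, and the first outside were Orai3 at 0.7607, Kptn at 0.7605 and Otud1 at 0.7583. These neighbours differ by far less than the same gene differs between libraries: Ykt6 alone ran from 0.548 to 0.916 over the 3 WT libraries.

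Both parts of the ratio set the members apart. Their median summed WT count was 732 at the TSS, against 303 for the other genes, and 660 over the gene body, against 2394. At the TES, which the choice did not use, the medians were close, at 231.5 and 242. The low gene body counts went with short genes: the median annotated length was 3797 bp for 625 matched members and 24825 bp for 11874 others. Per kilobase of gene, members had more gene body counts than the others, with medians of 158 and 88.3.

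**Figure D1:**
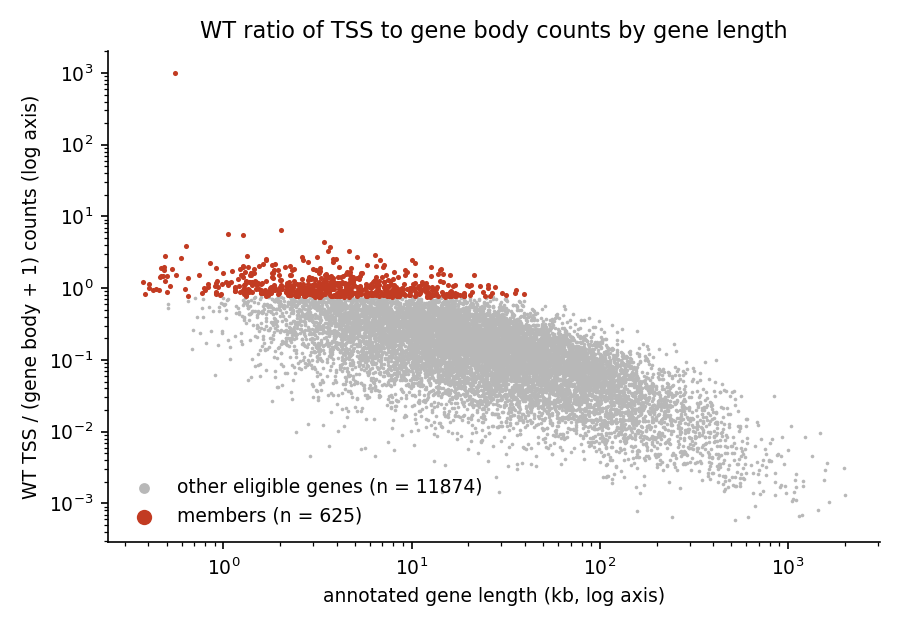
WT ratio of TSS to gene body counts against annotated gene length, both on log axes, with members in red and the other eligible genes in grey. The 625 matched members lie at the left, and none of the 3396 genes of 50000 bp or longer is among them; the single point near 1000 is Hist2h2aa1.

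The share of genes that were members fell with length. It was 42.4% of 330 genes under 2000 bp, 20.8% of 1223 genes from 2000 to 5000 bp, 7.75% from 5000 to 10000 bp, 3.39% from 10000 to 20000 bp and 0.531% from 20000 to 50000 bp. Across 12499 genes, which are not independent replicates, length and WT ratio had a Spearman correlation of -0.67, and within the members it was -0.26. Within a length class the members had the higher WT TSS counts, which the rule itself favours: the median was 558.5 against 163 under 2000 bp and 979 against 315 from 10000 to 20000 bp. If gene body counts were divided by length before ranking, only 93 of the 634 members (14.7%) stayed in the top 5%, and the median length of the new list was 55605 bp. The class is therefore one of count ratios, not of polymerase density.

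Members also shared features of the start site that the ratio did not use. Another gene's start faced away from theirs within 1000 bp for 209 of 515 members with a promoter entry (40.6%), and for 18.5% of 9492 other genes. This held in every length class, from 28.1% against 11.7% under 2000 bp to 50% against 20.2% from 20000 to 50000 bp. Dbil5, Cnpy4, Rpl36al and Tmem199, all among the 12 highest ratios of listed genes, had such a start within 41 to 128 bp. Whether reads of the neighbouring promoter were counted in the TSS windows of members was not tested, since no source used here gives the window widths.

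CpG content was somewhat higher at members. The median ratio of observed to expected CpG in the 300-base window was 0.827 for members and 0.766 for the others, and 82.3% against 73.1% exceeded 0.6. The ETS letters CCGGAA were in 39.2% of member windows, 27.8% of other eligible genes and 14.9% of all 32851 entries of the promoter table. TATAAA was in 10.3%, 6.57% and 13.6%, and TGACGT in 16.5%, 11.9% and 7.51%. The GC box GGGCGG hardly separated the groups, at 66.8% and 66.4%, against 35.7% of all entries. CCAAT stood at 43.1%, 38.7% and 37.4%, and the other 4 motifs differed by under 3 percentage points between members and other genes. These shares describe letters in a window and not bound factors.

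By function, histone genes stood out. Of 36 eligible clustered histone genes, 29 (80.6%) were members, against 5% of all eligible genes, and their median length was 515 bp. Mitochondrial ribosomal proteins gave 16 of 76 (21.1%), respiratory chain and ATP synthase subunits 16 of 79 (20.3%), immediate early genes 5 of 26 (19.2%) and cytosolic ribosomal proteins 13 of 77 (16.9%). Proteasome subunits gave 5 of 44, developmental transcription factors 9 of 103, heat shock and DNAJ chaperones 5 of 64, feedback inhibitors of signalling 3 of 31, and solute carriers 4 of 226. No member came from the 14 steroidogenic genes, 10 chromaffin genes, 46 potassium channels, 21 protocadherins or 14 housekeeping genes. The 170 members in any of the 30 lists left 464 members in none. The median lengths of these lists ran with their shares in part: 3164 bp for cytosolic ribosomal proteins and 94003 bp for protocadherins. Cytosolic ribosomal protein genes and immediate early genes (median 4656 bp) were not above the 20.8% of all genes from 2000 to 5000 bp. Mitochondrial ribosomal proteins (7610 bp) and respiratory subunits (7131 bp) were above the 7.75% from 5000 to 10000 bp. Histones were above the 42.4% under 2000 bp. List shares were not matched for length.

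**Figure D2:**
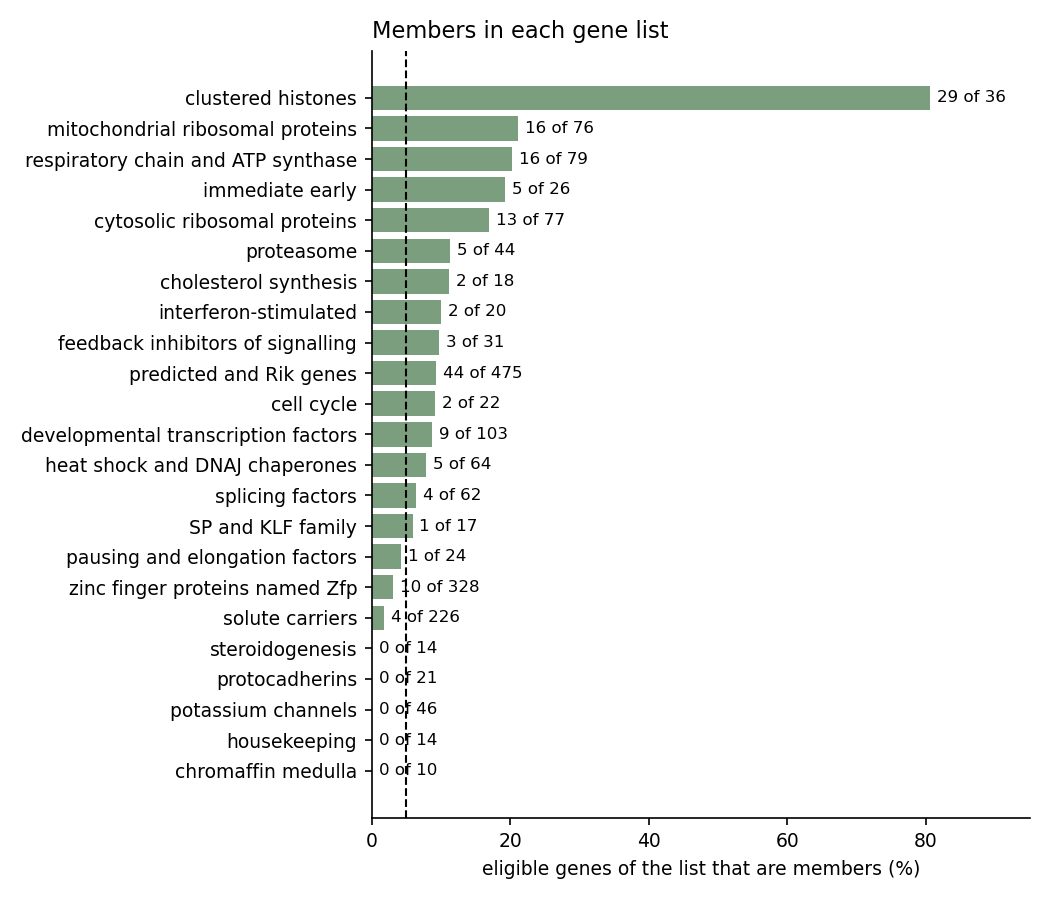
Percentage of the eligible genes of each list that were members, for lists with at least 10 eligible genes, with member and eligible counts beside each bar. The dashed line marks the 5% of all eligible genes; clustered histones reach 80.6% and 5 lists have no member.

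The adrenal steroidogenic genes had low ratios, with a WT median of 0.0357 for their list. Other lists were near or below this, at 0.0515 for chromaffin genes, 0.0498 for potassium channels and 0.00722 for protocadherins. Star, with 230 summed TSS counts and 32303 gene body counts in WT, had a ratio of 0.00712. Cyp11a1, the enzyme that cleaves the cholesterol side chain, had 0.00143, and Cyp11b1, which makes corticosterone, had 0.0365. Actb stood at 0.259. Polr2a, which encodes RPB1 itself, had ratios of 0.241, 0.201 and 0.102 in WT replicates 1 to 3, the last with 20335 gene body counts against 5012 and 2664 in the first 2.

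Values in a row are replicates 1 to 3 of a genotype. The highest ratio was that of Hist2h2aa1, a histone H2A gene of 556 bp at chr3:96245497-96246052. Its TSS counts in WT replicates 1 to 3 were 270, 162 and 564, and in the knockout 196, 604 and 449. It had 0 gene body counts in all WT libraries and 1 in the knockout. How much of so short a gene the gene body window covers is given by no source used here. Its near-identical copy Hist2h2aa2 had 560, 261 and 1371 TSS counts in WT and 509, 231 and 98 gene body counts. Reads that fit both copies can be split between them in counting, so the values of either are uncertain. In Hist2h2aa2 the ratio ran from 1.1 to 13.8 in WT and from 1.14 to 25.2 in the knockout.

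Ttc39d, a tetratricopeptide repeat protein gene of 2023 bp, had 917, 428 and 1872 TSS counts in WT and 796, 2118 and 1600 in the knockout. Its gene body counts were 177, 182 and 144 in WT and 242, 233 and 233 in the knockout. The ratios were 5.15, 2.34 and 12.9 in WT and 3.28, 9.05 and 6.84 in the knockout, so the genotypes overlapped. Dbil5, related to the diazepam binding inhibitor, had ratios of 4.15, 3.09 and 9.19 in WT and 3.28, 6.49 and 7.14 in the knockout. Rtl10, a gene derived from a retrotransposon, had 3.43, 2.56 and 8.13 against 3.12, 8.53 and 7.44. In these 3 genes WT replicate 2 was lowest, and WT replicate 3 was the highest of the WT libraries.

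Cnpy4 (an endoplasmic reticulum protein of the canopy family), Hist1h2bb (histone H2B), Rpl36al, Tmem199 (proton pump assembly), Mrpl41 and Ccdc87 had summed WT ratios between 2.68 and 2.87. Rpl36al, a ribosomal protein gene, and Mrpl41, a mitochondrial one, varied least of these, from 2.13 to 3.45 and from 2.3 to 2.99 in WT. In the knockout these 2 genes lay between 1.87 and 2.76.

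Members with the most TSS counts were not those with the highest ratios. Jund, an AP-1 subunit, had 1069, 455 and 2147 TSS counts in WT and 890, 1819 and 1746 in the knockout, and ratios of 0.69, 0.653 and 1.2 against 0.696, 0.772 and 0.975. Klf4, an immediate early zinc finger factor, had 652, 270 and 1226 against 631, 1220 and 1090 TSS counts. Both followed library depth, with WT replicate 2 lowest, and their genotypes overlapped. Hist4h4, Tmem179b, Srsf2 (a splicing factor), Insig1 (a sterol sensor of the endoplasmic reticulum), Nabp1 (a single-stranded DNA binding protein), Gart (purine synthesis), Nop56 (a small nucleolar RNP protein) and Polg2 (a mitochondrial DNA polymerase subunit) had summed WT TSS counts between 2119 and 2731. Their WT ratios ran from 0.933 to 1.81.

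The largest count of all was that of the predicted gene Gm10722, singled out after its values were seen. It had 11529, 11193 and 5502 TSS counts in WT and 6912, 3993 and 7127 in the knockout, so WT replicates 1 and 2 were high although they had fewer counts in all. Without it the ratio of summed TSS to summed gene body counts of the class was 0.854, 0.703 and 1.42 in WT in place of 0.863, 0.727 and 1.38. In the knockout it was 0.862, 1.3 and 1.18 in place of 0.874, 1.28 and 1.14.

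In the knockout the class largely kept its place. Chosen by the same rule from knockout counts, 635 genes qualified, of which 505 were shared (79.7% of the WT list and 79.5% of the knockout list). Of the 634 members, 625 were within the top 10% by knockout ratio. Ranked in single libraries, 266 members were in the top 5% of all 6 libraries and 350 in that of all 3 WT libraries. These overlaps come from the same gene models in all libraries and carry no test.

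Ratios of raw counts differed more between libraries than between genotypes. The median member ratio was 0.817, 0.695 and 1.35 in WT replicates 1 to 3 and 0.863, 1.28 and 1.14 in the knockout, or 0.953 ± 0.347 against 1.09 ± 0.211 (SD, n = 3). The 3 lowest medians were those of the libraries with few counts, knockout replicate 1 and WT replicates 1 and 2, and the genotypes overlapped. The same 3 libraries were lowest for all eligible genes, at 0.129 ± 0.0305 in WT and 0.163 ± 0.0188 in the knockout (SD, n = 3). Divided by the median of all eligible genes in the same library, the member median was 6.52, 6.92 and 8.36 in WT and 5.77, 6.92 and 7.37 in the knockout.

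**Figure D3:**
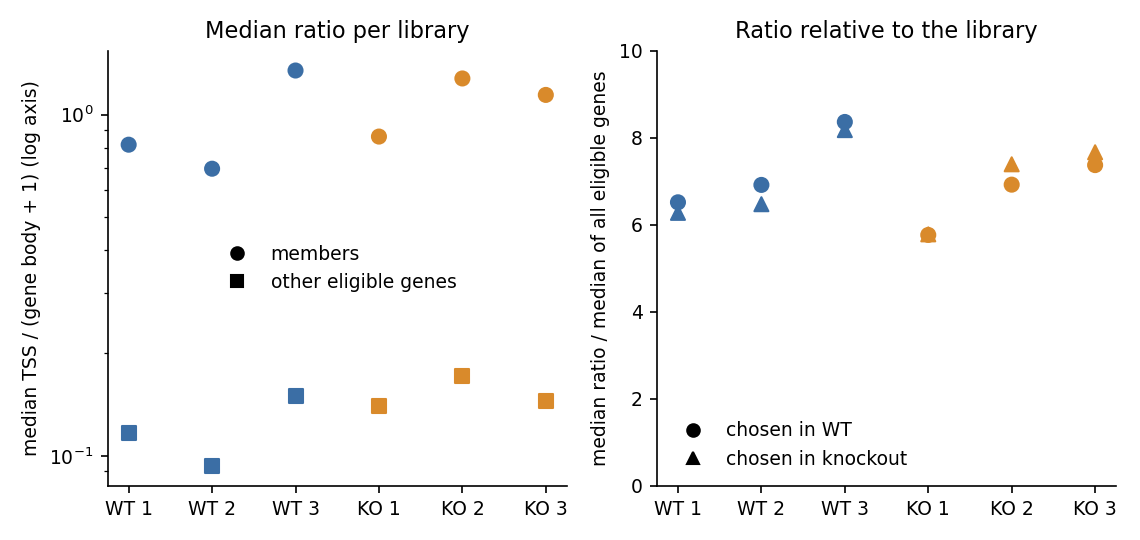
Left, median ratio of TSS to gene body counts in each library (log axis) for members (circles) and other eligible genes (squares); right, the member median over that of all eligible genes, for members chosen in WT (circles) or in the knockout (triangles). WT libraries are blue and knockout libraries orange; the right panel spans 5.77 to 8.36 for the WT choice, with the genotypes overlapping.

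The choice on WT values biases the comparison of the ratio between genotypes. A gene enters the class more easily where its TSS counts happen to be high, or its gene body counts low, in these 3 WT libraries. When members were chosen from WT replicates 1 and 2 alone, the relative median in WT replicate 3 was 7.36, against 8.36 when that replicate took part in the choice. For WT replicates 1 and 2 left out in turn the values were 6.41 and 6.73, against 6.52 and 6.92. Chosen instead in the knockout, the relative medians in knockout replicates 1 to 3 rose to 5.78, 7.39 and 7.67 and those in WT fell to 6.27, 6.47 and 8.18.

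The change of the raw ratio also differed with the choice. The ratio of summed counts was higher in the knockout for 452 members and lower for 182, or 28.7% lower against 18% of all eligible genes. The median log2 change of this ratio, knockout minus WT, was 0.14 for members and 0.29 for all eligible genes. For the class chosen in the knockout it was 0.28. The smaller shift of the members was thus seen with the WT choice and not with the knockout choice, and it carries no test.

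**Figure D4:**
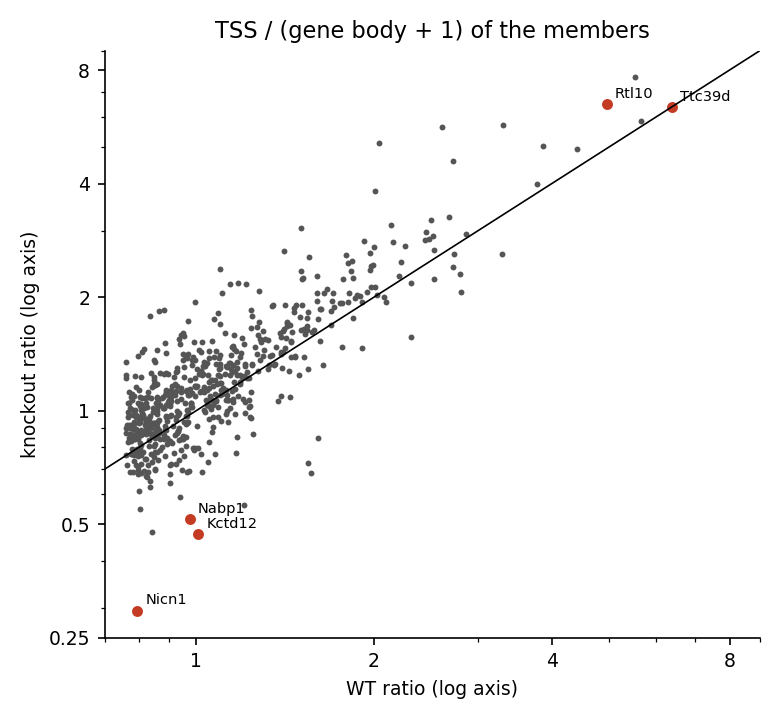
Ratio of summed TSS to summed gene body counts plus 1 of each member in WT (horizontal) and in the knockout (vertical), on log axes, without Hist2h2aa1; the line marks equal ratios. The 452 members with a higher knockout ratio lie above the line, and Nicn1, Kctd12 and Nabp1 lie well below it.

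Scaling between libraries within each region removes a shift of the ratio that most genes share. The scaled changes are therefore relative to other genes. Members lay below all genes here, as they did in the raw ratio (0.14 against 0.29). In edgeR's quasi-likelihood test of the region by genotype interaction, the median log2 change of the TSS to gene body ratio was -0.13 for 633 members and -0.02 for all genes tested. None of the 633 members passed at a Benjamini-Hochberg adjusted p under 0.05, with 0% of all genes called. At an unadjusted p under 0.05 there were 6 increases (0.948%) and 41 decreases (6.48%) among members, against 1.81% and 1.84% of all genes. The choice on WT ratios favours decreases in the knockout, so these shares are a description, and limma-voom called 0 members. The decrease with the smallest p was that of the predicted gene 2810006K23Rik, at -1.44 ± 0.19 (SE, edgeR adjusted p = 0.141). Outside the predicted genes, Kctd12, Amigo2 and Nicn1 had the smallest p among decreases. Their log2 changes were -1.41 ± 0.211, -1.21 ± 0.18 and -1.66 ± 0.273 (SE, n = 3 per genotype), with adjusted p of 0.192, 0.192 and 0.329 by edgeR. Tmem138, Birc5 and Armcx5 led the increases with 0.72, 1.09 and 0.84, all at an adjusted p of 0.955 by edgeR. Gene body counts of the class made up 0.986% ± 0.0498 of all gene body counts in WT and 1.15% ± 0.0228 in the knockout (SD, n = 3), while their share of TSS counts was 9.89% ± 0.532 and 9.89% ± 0.689. Low gene body and high TSS counts in WT favour entry into the class, so these shares of counts are a description too.

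Few members were called at the TSS. Of 634 members, 6 (0.946%) passed edgeR's quasi-likelihood test at an adjusted p under 0.05, all higher in the knockout, against 0.339% of all genes. WT TSS counts entered the choice, so this share is a description. The median log2 fold change was 0.04 for members and -0.01 for all genes. The 6 genes were Mafa, Ccl7, Isg15, Hist1h2bm, Id4 and Hist1h1a, and their levels are given in CPM, that is, counts divided by a library size that TMM set within each region.

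Mafa, a large Maf transcription factor best known from insulin-producing cells, had 17.4, 23.8 and 29.4 CPM at the TSS in WT, against 127, 120 and 130 CPM in knockout glands. The groups were far apart, with a 5.23-fold difference (log2 2.39 ± 0.209 SE, edgeR adjusted p = 0.00185). Isg15, a ubiquitin-like protein induced by interferon, had 39.7, 43.4 and 44.8 CPM in the WT mice and 91.2, 124 and 147 CPM in the knockout mice, a 2.84-fold difference (edgeR adjusted p = 0.00998). Ccl7, a chemokine that attracts monocytes, had 9.8, 16.5 and 21.1 CPM against 43.9, 54.8 and 70.3 CPM (3.51-fold, edgeR adjusted p = 0.0355). The genotypes did not overlap for any of the 3. At the TSS this held, in either direction, for 11.7% of members and 11.4% of all genes tested. Summed gene body levels of the 8 macrophage and myeloid markers in the table overlapped, at 675 to 796 in WT and 693 to 729 in the knockout (CPM per kilobase), with no marker at 0. Those of 8 capsule and fibroblast markers did not overlap, at 465 to 946 in WT and 365 to 443 in the knockout. Those of 10 chromaffin markers overlapped, at 1167 to 2244 and 1356 to 3915, with the highest value in knockout replicate 2. The part of these marker levels in the results at the TSS, gene body and TES was not tested.

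Id4, an inhibitor of basic helix-loop-helix factors, had 88.8, 81.7 and 84.5 CPM at the TSS in WT, against 158, 199 and 176 CPM in the knockout, a 2.09-fold difference (edgeR adjusted p = 0.0137). The histone genes Hist1h2bm and Hist1h1a were 2.71-fold and 2.06-fold higher (edgeR adjusted p = 0.0176 and 0.0168). The calls of Ccl7, Isg15, Id4, Hist1h2bm and Hist1h1a were each lost without WT replicate 1, WT replicate 2, knockout replicate 2 or knockout replicate 3, at edgeR adjusted p from 0.07 to 0.294, and that of Mafa was not. Ccl7 was also lost with limma-voom (adjusted p = 0.0667). Outside the predicted genes, the 3 decreases with the smallest p were Kctd12, Colca2 and Tnfsf13. Their log2 fold changes were -0.46, -0.57 and -0.61, with edgeR adjusted p of 0.51, 0.603 and 0.672.

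Gene body counts were part of the choice too. Of 633 members tested, 12 (1.9%) passed, 11 higher and 1 lower in the knockout, against 0.252% of all genes (0.244% higher and 0.00787% lower). The median log2 fold change was 0.14 for members and -0.02 for all genes. This median moved with length: among genes under 2000 bp it was 0.3 for members and 0.2 for others, from 2000 to 5000 bp 0.18 and 0.17, and from 5000 to 10000 bp 0.08 and 0.09. The single lower gene was 9130023H24Rik at chr7:128234451-128238031, with 17, 11.8 and 15.7 CPM in WT libraries, compared with 4.83, 5.23 and 4.24 CPM in knockout libraries. Of the class chosen from knockout counts, an alternative added after seeing the data, 4 members were called.

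Nicn1, a subunit of the tubulin polyglutamylase complex, had 4.92, 7.8 and 4.88 CPM over its gene body in WT libraries, compared with 22.7, 27.1 and 29.2 CPM in knockout libraries, a 4.54-fold difference (edgeR adjusted p = 0.0332). Hist1h1a, a linker histone, had 7.9, 5.03 and 3.66 CPM against 25, 30.7 and 32.9 CPM (5.34-fold, edgeR adjusted p = 0.0332). Amigo2, a cell adhesion protein, had 8.79, 9.99 and 8.55 CPM against 25.5, 31.8 and 33.5 CPM (3.33-fold, edgeR adjusted p = 0.0332). In all 3 the lowest knockout library was above the highest WT library. Low WT gene body counts favour entry into the class, so these values are a description. Over the gene body the genotypes did not overlap, in either direction, for 19.1% of members and 10.4% of all genes tested. Scx, Acy3, Arc, Cdkn2aip and Nabp1 were 2.39-fold to 2.9-fold higher. Without WT replicate 1 or any 1 knockout library no gene body call was left (adjusted p from 0.0894 to 0.272 for these 8 genes by edgeR). The same held with the kind of mouse number, with or without a letter, as a covariate (edgeR adjusted p from 0.100 to 0.106), while without WT replicate 3 there were 5. Without WT replicate 2 there were 12, with Cdkn2aip at an edgeR adjusted p of 0.0707.

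TES counts were not used in the choice, although they come from the same libraries and lie beside the gene bodies. Of 632 members tested, 25 (3.96%) rose in the knockout and 0 fell, against 0.915% of all genes called (0.82% higher and 0.0946% lower) by edgeR. The median log2 fold change was -0.01 for members and -0.02 for all genes, so the rise concerned single members and not the median. Among genes under 10000 bp, 21 of 521 members (4.03%) were called and 33 of 2677 other genes (1.23%). Outside the histone list 19 of 603 members (3.15%) were called. At the TES the genotypes did not overlap, in either direction, for 16.3% of members and 11.5% of all genes tested.

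The excess of TES calls was smaller when the class was chosen in the knockout. Of the class chosen from knockout counts, 10 genes (1.58%) were called, and 10 of the 25 called members belonged to it. The other 15, among them Nabp1, Kctd12, Hist1h1a and Nicn1, no longer reached the threshold on knockout counts. Of the list ranked per kilobase, 6 (0.974%) were called. With any 1 library left out, 20 to 27 members were called.

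Nabp1, at chr1:51464968-51478475, had 41.4, 35.3 and 25.4 CPM at the TES in WT libraries, compared with 158, 169 and 181 CPM in knockout libraries. That was a 5.02-fold difference (log2 2.33 ± 0.25 SE, edgeR adjusted p = 4.05e-08). Over its gene body it had 46.5, 38.2 and 42.4 CPM against 96, 103 and 106 CPM, and at the TSS 305, 320 and 419 against 329, 395 and 379 CPM. Only the TSS values of the genotypes overlapped, and there the log2 fold change was 0.08 ± 0.181 (SE, edgeR adjusted p = 0.991).

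Kctd12, which modulates GABA-B receptors, showed the TES rise beside a lower TSS. It had 50.3, 45.1 and 55.5 CPM at the TES in WT, against 175, 153 and 173 CPM in the knockout, 3.29-fold higher (edgeR adjusted p = 9.21e-06). At the TSS it had 296, 303 and 299 CPM against 223, 223 and 207 CPM. The genotypes were apart in both regions, but the TSS difference of -0.46 ± 0.145 on the log2 scale (SE) did not pass (edgeR adjusted p = 0.51).

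Atp1b2, a beta subunit of the sodium and potassium pump, had 12.4, 26.5 and 15.7 CPM at the TES in the WT mice and 66.7, 77.7 and 91.5 CPM in the knockout mice (4.54-fold, edgeR adjusted p = 3.68e-07). Id4 had 20.1, 20.6 and 7.43 against 69.8, 63.5 and 86.6 CPM (4.83-fold, edgeR adjusted p = 8.18e-07). Amigo2 had 12.4, 32.4 and 10.1 against 56.7, 56.7 and 72.8 CPM (3.73-fold, edgeR adjusted p = 8.2e-05). Every knockout library was above every WT library for these genes, and WT replicate 3 or 1 was the lowest.

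Ifit3b, of the interferon-induced Ifit family, had 15.4, 32.4 and 10.5 CPM at the TES in WT libraries, compared with 59, 75.4 and 54.6 CPM in knockout libraries (3.53-fold, edgeR adjusted p = 9.33e-05). Its TSS was 2.17-fold higher but did not pass (edgeR adjusted p = 0.0803). Both members of the fixed interferon-stimulated list, Bst2 and Isg15, had TES log2 fold changes of 0.84 and 0.88 and did not pass at the TES, whereas 9 of the 20 genes tested from that list did. Ifit3b is not on that list.

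**Figure D5:**
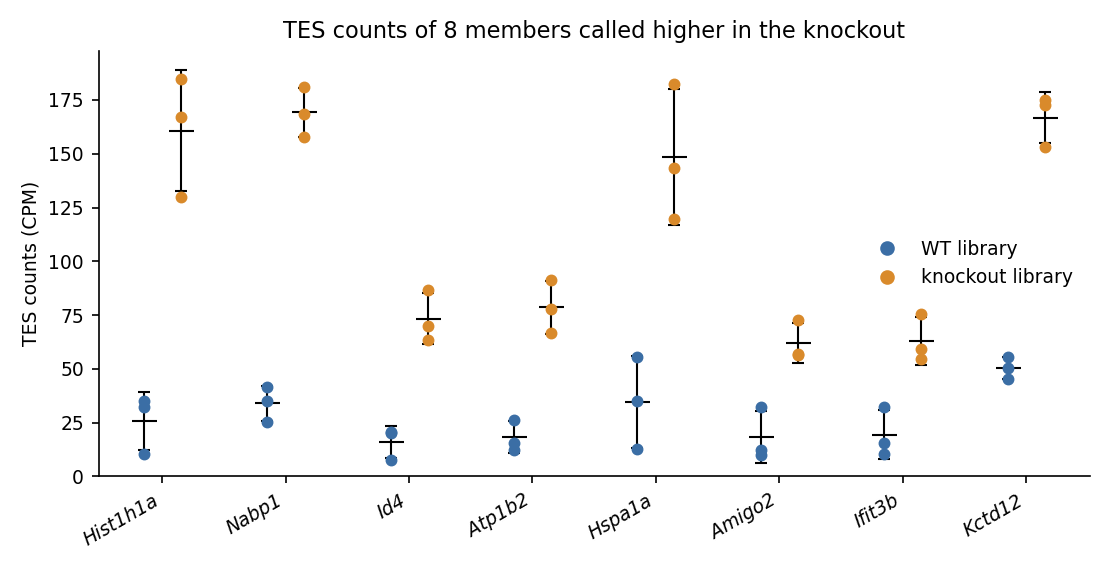
TES counts in CPM of the 8 called members with the largest fold changes, with 1 point per library, horizontal bars at the mean and error bars of 1 SD (n = 3 per genotype). For each gene the 3 knockout libraries (orange) lie above the 3 WT libraries (blue), from 54.6 to 185 CPM against 7.43 to 55.6 CPM.

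Histone genes made up 6 of the 25 called members. Of 29 histone members, 6 rose at the TES (Hist1h1a, Hist1h3a, Hist1h4a, Hist1h4c, Hist1h4i and Hist4h4), 2 at the TSS and 1 of 28 over the gene body, and none fell. Their median log2 fold change was 0.36 at the TES, 0.22 at the TSS and 0.68 over the gene body. Hist1h1a had 34.9, 32.4 and 10.5 CPM at the TES in WT, against 167, 130 and 185 CPM in the knockout (6.44-fold, edgeR adjusted p = 4.05e-08). Hist4h4, with the highest TSS counts of the list, had 15.4, 29.4 and 8.31 against 48.3, 37.9 and 63.4 CPM (3.05-fold, edgeR adjusted p = 0.00321). The genotypes did not overlap in either, and WT replicate 3 was lowest in both.

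Several of these histone genes adjoin each other. Hist1h4a (chr13:23760795-23761249), Hist1h3a (chr13:23761885-23762386) and Hist1h1a (chr13:23763668-23764412) lie side by side, so their windows may share reads, and near-identical coding sequences add to this. Other histone members did not pass: Hist2h2aa1 and Hist1h4d had TES log2 fold changes of 0.56 ± 0.281 and 0.36 ± 0.233 (SE) and edgeR adjusted p of 0.739 and 0.892. The 2 members from the cell cycle list, Cdt1 and Cdc20, had TES log2 fold changes of -0.54 and 0.3 and were not called.

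Of the 5 heat shock and DNAJ members, the inducible Hsp70 genes Hspa1a and Hspa1b rose at the TES, among 4 of 64 genes of that list. Hspa1a had 55.6, 35.3 and 12.7 CPM in WT, against 143, 120 and 182 CPM in the knockout (4.39-fold, edgeR adjusted p = 1.11e-05). Hspa1b had 56.2, 50 and 23.6 against 107, 86.8 and 114 CPM (2.42-fold, edgeR adjusted p = 0.00286). These copies are close neighbours with nearly the same coding sequence, so reads may be shared between them. At the TSS their log2 fold changes were 0.49 and 0.17, and neither passed (edgeR adjusted p = 0.727 and 0.952).

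Among the 5 immediate early members, Arc alone was called at the TES. Arc, a regulator of synaptic receptors, had 39.6, 24.5 and 25.4 CPM in the WT mice and 78.2, 73.6 and 73.3 CPM in the knockout mice (2.49-fold, edgeR adjusted p = 0.00058). Jund and Klf4 had TES log2 fold changes of 0.06 ± 0.273 and 0.05 ± 0.245 (SE, edgeR adjusted p = 0.991 and 0.992). The ribosomal, respiratory chain, proteasome and splicing lists had none of their 54 members called in the 3 regions by edgeR, DESeq2 or limma-voom. At an unadjusted p under 0.05, edgeR gave 2 over the gene body (3.7%), 2 at the TES (3.7%) and 0 at the TSS, against 5.05%, 6.85% and 5.57% of all genes. The list medians lay between -0.23 and 0.01 at the TES and between 0.14 and 0.33 over the gene body.

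Further called members at the TES were the transcription factor Scx, the detoxifying enzyme Gstp1, the histone variant H2afx, and Cdkn2aip, Jpt1, Letmd1, Nicn1, Tcta and Zswim3. They were 1.88-fold to 3.03-fold higher. Nicn1 and Tcta are neighbours on chromosome 9, at chr9:108290443-108296498 and chr9:108302955-108306159. Nicn1 had 34.9, 67.6 and 45.9 CPM at the TES in the WT mice and 123, 172 and 146 CPM in the knockout mice. Tcta had 73.9, 64.7 and 78.7 against 123, 156 and 136 CPM, and neither gene's genotypes overlapped. Of the 12 gene body calls, 9 were also TES calls, and 2 of the 6 TSS calls were.

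No member fell at the TES by edgeR, DESeq2 or limma-voom, while 1 did in edgeR with the kind of mouse number as a covariate. At an unadjusted p under 0.05 in edgeR 10 members (1.58%) were lower, against 2.48% of all genes. Outside the predicted genes, Mkrn3, an imprinted zinc finger gene, Polr3d, a subunit of RNA polymerase III, and Spryd4 had the smallest p. Their log2 fold changes were -1.48 ± 0.514, -0.63 ± 0.248 and -0.56 ± 0.23 (SE), with edgeR adjusted p of 0.275, 0.469 and 0.514. Relative to gene body counts, TES counts had a median log2 change of -0.14 for 631 members and -0.01 for all genes. Low WT gene body counts favour entry into the class and raise this ratio in WT, so its values for members are a description. In that ratio 1 member was called, the predicted gene 2810006K23Rik, which was lower, against 0.0158% of all genes by edgeR (0.00789% higher and 0.00789% lower). Nabp1 had the smallest p among increases, 1.09 ± 0.207 on the log2 scale (SE, edgeR adjusted p = 0.15).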

How the data were processed

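The deposited tables hold whole-number read counts per gene for 12718 genes in 6 libraries, in 1 table for each of TSS, gene body and TES. The authors also deposited log2 values, which were not used here, and a table that stacks the 3 regions. The stacked table served only as a check, and 0 of its cells differed from the 3 tables. Per the submitters' processing notes, the builds were GRCm38 and mm10, and the tools listed without roles were BWA, HOMER, MACS2, Picard, Trimmomatic, limma, edgeR and bcl2fastq 2.20. The counting tool, window widths and read filters are given by no source used here.

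Groups came from the genotype labels. Tests per region used edgeR 4.0.16 (R 4.3.3, TMM scaling, filterByExpr, quasi-likelihood F test, Benjamini-Hochberg over all genes, called at an adjusted p under 0.05). Ratios were tested as the interaction of region and genotype, blocking on library. The SE given with an edgeR log2 change is its size divided by the square root of the F statistic. limma 3.58.1 (voom) and DESeq2 1.42.0 were alternatives. The procedure was tested on simulated data. Lengths and promoters came from RefSeq GRCm38.p6, with 12523 of 12718 symbols matched.

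The members, the 30 lists and the rules were chosen with earlier results of these data known. Named were the 12 highest ratios, the 12 highest WT TSS counts, 3 genes on each side of the threshold, up to 8 called members per test and direction (or the 3 smallest p), and up to 3 members per list. Some genes that these rules choose are counted but not reported by name here. Predicted genes were counted, and 3 of them are named because they were singled out after their values were seen. Shares and counts cover counting error of reads that are not independent molecules.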

Additional observations from a re-analysis of the deposited data

How the results depend on the processing

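At the TES 25 members were called, and 20 to 32 in the 15 other settings of the test. The 8 called members with the largest fold changes passed in all 15, which does not cover the other called members. Members called at the TSS moved from 6 to 18 with a replicate block, 24 with the depth class as a covariate, 14 with the kind of mouse number (with or without a letter) as a covariate and 15 with DESeq2, and over single left-out libraries from 1 to 14. Gene body calls moved from 12 to 0 with the replicate block or the mouse number, 24 with the depth class and 36 with DESeq2, and from 0 to 12 over left-out libraries. With DESeq2 calls over all genes moved too, so its moves are not particular to the members. All-gene counts under the other settings are not given here. At the TSS DESeq2 called 95 of all genes, against 43 by edgeR. Over the gene body it called 172 higher and 7 lower, against 32 in either direction by edgeR. The member called in the TES to gene body ratio was lost with RLE scaling or the replicate block (0), with 0 to 2 over left-out libraries. Replicate numbers did not pair the samples: same-numbered libraries had deviations at the TSS that correlated at 0.44, -0.21 and 0.36.

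The median WT ratio moved from 0.993 to 1.39 for the top 2% and 0.284 per kilobase. Calls at the TSS became 2 with a minimum of 500 counts and 3 per kilobase. Gene body calls became 7 for the top 2% (2.78% of its genes tested, against 1.9% in the main class), 7 per kilobase (1.12%) and 4 when chosen in the knockout (0.631%). TES calls became 12 (4.76%, against 3.96%), 6 (0.974%) and 10 (1.58%) under the same 3 choices, and the last of these was added after seeing the data. In the counts of named genes, 535 of 609 values kept their side of the threshold, 74 lost it and none reversed. The cause of these moves was not tested. Gene body tables were deeper than TSS and TES tables, and whether depth limited the calls was not tested.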
